A study of Homo sapiens with 4 samples.

Results

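Collagens, laminins and integrins are the genes for the main fibre and sheet proteins of the extracellular matrix and for the receptors by which cells hold on to them. Members were the genes whose symbol in the RNA-seq tables was that of a numbered collagen chain, a laminin chain, or an integrin alpha or beta subunit. This gave 82 of 58288 genes: 44 for collagens, 12 for laminins and 26 for integrins. A reference gene name was given in both tables for 67 members. For the other 15 it was missing from at least 1 table, and they were matched there by a plain gene name. Every transcript without a reference gene name was listed at a coverage of 0.

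The cells were HK2, an immortalized human line from the renal proximal tubule, treated with FG-4592 (roxadustat), which blocks the prolyl hydroxylases and so keeps HIFα proteins from being degraded. There were 4 libraries in 1 condition, 50 μM FG-4592: 2 of HIF1α ChIP-seq, made with the antibody Novus NB100-134, and 2 of RNA-seq. The methods of the study give 6 h of treatment for RNA-seq and state the same condition for ChIP-seq. Whether the replicates came from separate cultures is not stated. Untreated cells were not analysed here, so every value is a level or a peak under FG-4592, and no change with treatment was computed. With 1 group of 2 libraries for each assay, no test between conditions was possible.

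The label of the cells was compared with markers of cell types. RNA levels are in FPKM, the mapped fragments scaled by transcript length and library size, summed over the transcripts of a gene. Of 6 epithelial markers, 5 had a mean FPKM of at least 1, with a summed FPKM of 489 in replicate 1 and 467 in replicate 2. *KRT19*, a keratin, was the most abundant at 184 and 177, while the cadherin gene *CDH1* was low at 0.211 and 0.379. Of 8 proximal tubule markers only 2 reached an FPKM of 1, with a summed FPKM of 65.1 and 60.4, nearly all of it from the peptidase gene *GGT1* at 62.3 and 58.5. The endocytic receptor gene *LRP2* and the anion transporter gene *SLC22A6* were listed at 0 in both libraries, so most markers that define this tubule segment were absent or nearly so.

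Markers of other cell types that make matrix were low. Of 6 fibroblast markers, 2 reached an FPKM of 1, with a summed FPKM of 5.45 and 5.32. The most abundant was *LUM*, which encodes a small matrix proteoglycan, at 3.19 and 2.99, and *PDGFRA*, a growth factor receptor that defines fibroblasts, was listed at 0 in both. None of 5 endothelial markers reached an FPKM of 1. Of 6 leukocyte markers only *CD68*, a lysosomal protein, did, at 33.6 and 31.5, and *PTPRC* and *CD3E* were listed at 0 in both. In bulk RNA, fewer cells of a type and less RNA per cell cannot be told apart.

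Collagen chains wind around each other into a helix and then build fibrils, networks or filaments. Laminins are cross-shaped assemblies of an alpha, a beta and a gamma chain that start a basement membrane, the sheet under every epithelium, which type IV collagen then stabilises. Integrins are pairs of an alpha and a beta subunit that span the membrane and bind these proteins outside the cell and the actin or keratin skeleton inside it, and in the kidney the tubule epithelium rests on a membrane built in this way.

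The only measure of depth in the tables is coverage, which times transcript length summed to 4442 Mb in RNA-seq replicate 1 and 4202 Mb in replicate 2. The members took 82.6 Mb (1.86%) and 76.4 Mb (1.82%) of it. Their summed FPKM was 2912 and 2857, which was 0.803% and 0.792% of the FPKM of all genes. Whether reads were separated by strand is not stated in the sources used here. Of the 42 members with a mean FPKM of at least 1, 27 are overlapped by a gene on the opposite strand. The strand of reads from the overlapping stretches may therefore be uncertain.

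Of the 82 members, 42 (51.2%) had a mean FPKM of at least 1. Among 19658 protein-coding genes the share was 59.7%, so the members reached an FPKM of 1 no more often than other genes. A mean FPKM of at least 10 was reached by 29 members, beside 6160 of the 19658 protein-coding genes. One of at least 100 was reached by 10 members, beside 492 of those genes, which is a larger share of the members. At the other end, 26 members were below 0.1, beside 5740 of the 19658 protein-coding genes, which is a similar share. Of these members, 8 were listed at 0 in both libraries, where protein-coding genes share rank 15839. The threshold of 1 fell between *ITGA1*, a collagen receptor subunit at 1.05 and 1.27, and *ITGAX*, a leukocyte subunit at 1.14 and 0.861.

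The families differed in how many of their genes were expressed. A mean FPKM of at least 1 was found for 18 of 44 collagen genes, 9 of 12 laminin genes and 15 of 26 integrin genes. The summed FPKM of the collagens was 1431 in replicate 1 and 1383 in replicate 2, that of the laminins 539 and 519, and that of the integrins 943 and 954. A few genes held most of the totals. The leading 3 genes gave 62.3% and 61.6% of the FPKM of collagens, and 74.2% and 73.0% of that of integrins.

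**Figure D1:**
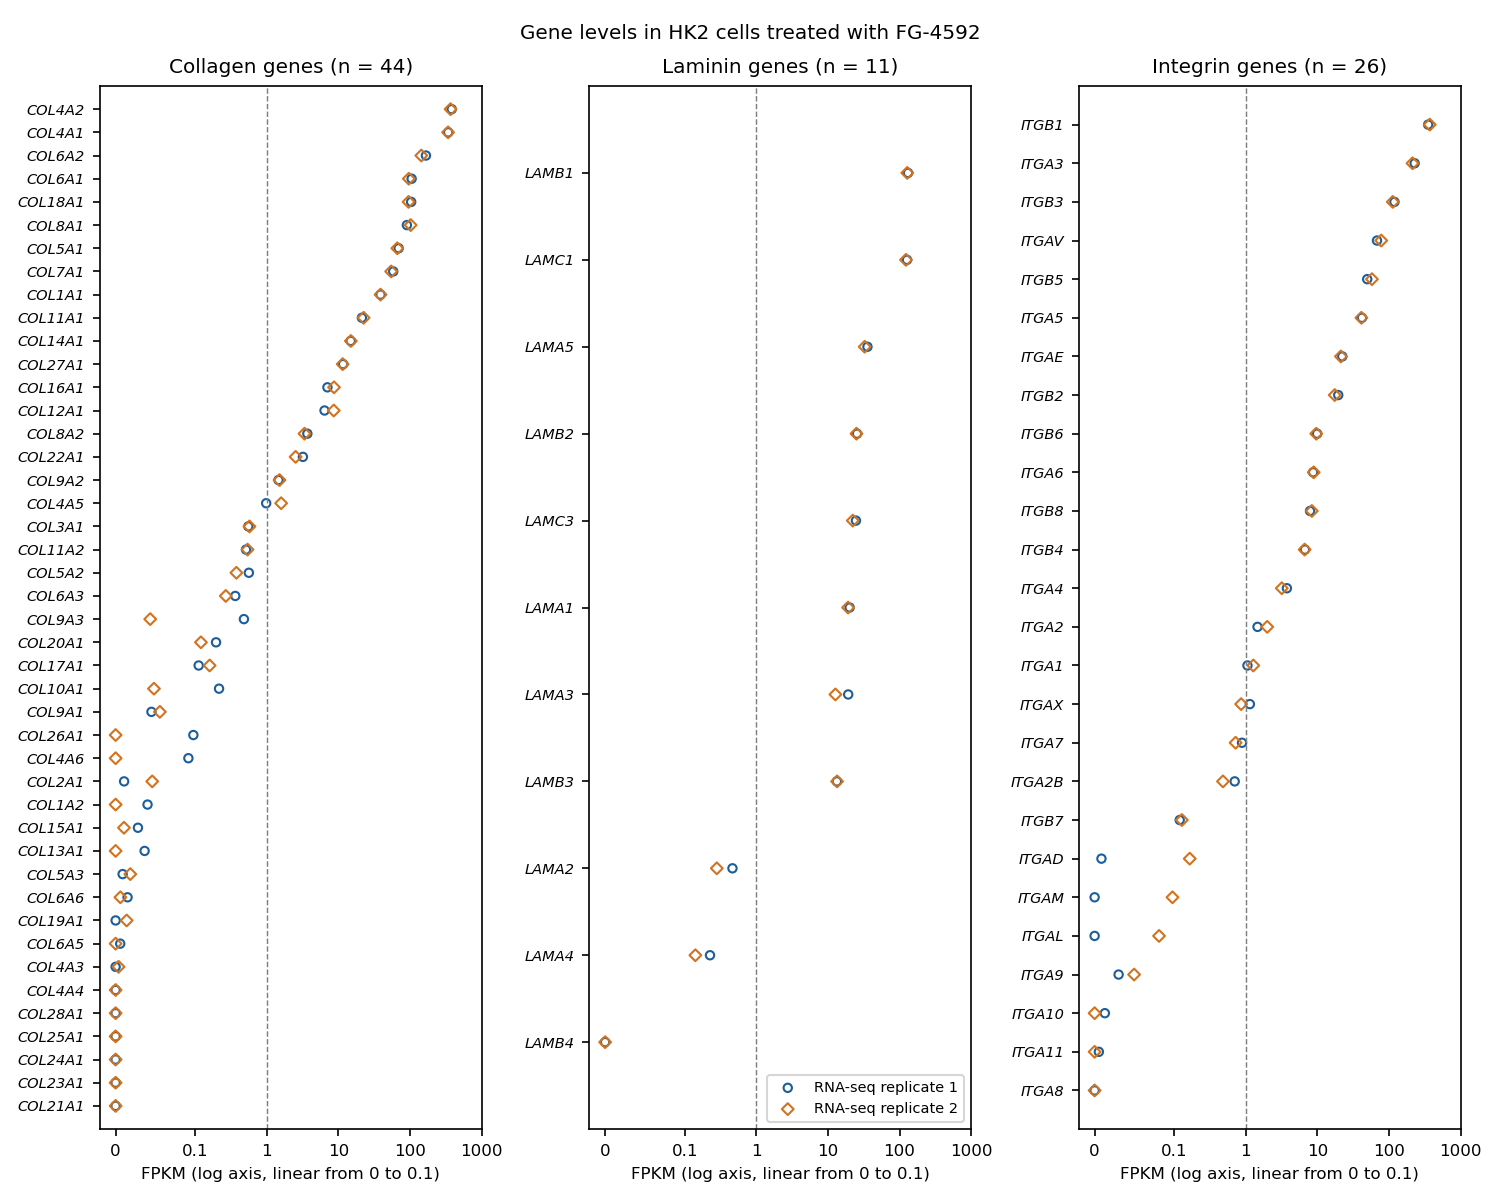
FPKM of all but 1 of the members in RNA-seq replicates 1 and 2, on an axis that is linear up to 0.1 and logarithmic above, grouped by family, with each point a library. *COL4A2*, *ITGB1* and *COL4A1* are highest, with mean FPKM of 375, 361 and 341, and above an FPKM of 1 the replicates lie close together for most genes.

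The plot of levels by family shows how near the libraries were to each other. With a pseudocount of 1, the log2 ratio of replicate 2 over replicate 1 had a median of -0.01 over all members. The ratios ran from -0.56 for *LAMA3* to 0.38 for *COL4A5*. More than 1.5-fold between the replicates were 2 of the 42 members with a mean FPKM of at least 1 (4.76%), beside 5.38% of 11726 protein-coding genes at that level. With the pseudocount, the median absolute log2 ratio was 0.08 for those members and 0.12 for those genes.

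Type IV collagen, the network former of basement membranes, was the most abundant collagen. *COL4A2* (ENSG00000134871), which encodes its α2 chain, had an FPKM of 382 and 368 and a mean of 375 ± 9.97 (SD, n = 2), rank 113 among 19658 protein-coding genes. *COL4A1* (ENSG00000187498), for the α1 chain, had an FPKM of 342 and 339.9 and a mean of 341 ± 1.34 (SD, n = 2), rank 126. *COL4A2* was above *COL4A1* in both libraries, by 1.12-fold and 1.08-fold, a difference larger than the spread of either gene. Of the chains of the mature glomerular membrane, *COL4A5* was low at 0.981 and 1.59, and *COL4A3* and *COL4A4* were at or near 0. *COL4A6*, a chain that pairs with that of *COL4A5* in some membranes, was read in replicate 1 only, at 0.0915.

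*COL4A1* and *COL4A2* lie head to head on chromosome 13 and share their promoter. On GRCh37 (hg19) the canonical start of *COL4A1* is at position 110959504 on the minus strand and that of *COL4A2* at 110959631 on the plus strand, 127 bp apart. A single ChIP-seq replicate 2 peak, chr13:110959264-110959902, spans both starts, and no replicate 1 peak lay within 1 kb of them. The stretch between the exons of the genes, chr13:110959505-110959604 on the plus strand, is shown because both chains are transcribed from it:
*COL4A1*-*COL4A2*: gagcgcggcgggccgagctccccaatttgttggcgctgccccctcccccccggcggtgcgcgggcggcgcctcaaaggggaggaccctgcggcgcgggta
It is 78% G and C. The core of the HIF response element was sought as ACGTG and GCGTG on both strands, so that CACGTG counts on both, and cores are the only letters given in capitals here. This stretch holds 0 of them, while the whole replicate 2 peak across it holds 1. Of the RefSeq promoters described further on, that of *COL4A2* holds a core and that of *COL4A1* does not. Of 19560 windows of the 100 bases before the canonical start of a protein-coding gene, 29.4% hold a core. A match is a description and marks no binding, and its lack says only that these letters are not in the window.

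Fibrillar collagens, which form the cross-striated fibrils of connective tissue, stood far apart within their pairs of chains. *COL5A1*, the α1 chain of type V collagen, which starts fibrils, was the most abundant of the 11 genes at 69.4 and 66.4. Its partner *COL5A2* was at 0.562 and 0.377, lower by 124-fold and 176-fold. *COL1A1*, the main chain of type I collagen, was at 38.7 in both libraries, while *COL1A2*, which supplies the other chain of the usual type I helix, was at 0.0401 in replicate 1 and listed at 0 in replicate 2.

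The same held for type XI collagen, a fibril collagen best known from cartilage. *COL11A1* was at 21.3 and 22.5 and *COL11A2* at 0.513 and 0.538, a ratio of 41.5 and 41.8. *COL27A1*, a fibrillar chain that forms a helix of its own, was at 11.7 and 11.5. *COL3A1*, the type III chain of distensible tissues, was low at 0.552 and 0.573. In all, 4 of the 11 fibrillar genes had a mean FPKM of at least 1.

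Type VI collagen, which forms beaded filaments next to basement membranes, also lacked a chain at comparable level. *COL6A2* was at 167 and 144 and *COL6A1* at 105 and 96.3, whereas *COL6A3*, whose large chain joins theirs in the usual assembly, was at 0.363 and 0.267. *COL6A2* exceeded *COL6A3* 460-fold in replicate 1 and 538-fold in replicate 2. Of the FPKM of *COL6A1*, 40.1% and 30.4% came from a transcript of 2358 bases with a retained intron, so its sum overstates the message for the chain. *COL7A1*, the anchoring fibril collagen that ties the basement membrane to the tissue below, was at 58.3 and 54.5.

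The other collagen groups were led by *COL18A1* and *COL8A1*. *COL18A1*, a basement membrane collagen of the multiplexin group whose end fragment is endostatin, was at 104 and 95.5, and its relative *COL15A1* was below 0.1. *COL8A1*, the α1 chain of the short-chain type VIII network, was at 90.4 and 102, with *COL8A2*, which encodes the α2 chain, lower by 24.5-fold and 30.4-fold. Of 10 fibril-associated collagens, which decorate the surface of fibrils, 5 had a mean FPKM of at least 1, led by *COL14A1* at 14.8 and 14.9. None of 4 transmembrane collagens did, and their summed FPKM was 0.148 and 0.159.

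Every laminin holds 1 gamma chain. *LAMC1*, the gamma chain of most laminins, was at 127 and 123. *LAMC3*, a gamma chain of restricted distribution, was at 24.6 and 22.3.

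Among the beta chains *LAMB1*, the widespread chain, was highest at 132 and 128. *LAMB2*, the beta chain that replaces it in mature glomerular membranes, was at 25.5 and 25.1, with 62.7% of its mean FPKM from coding transcripts. *LAMB3*, a beta chain of epithelia, was at 13.3 and 13.4, and *LAMB4* was listed at 0 in both libraries. The split of *LAMB3* over transcripts was less stable than its sum: the FPKM of a transcript of 4305 bases was 9.77 and then 3.62 in replicate 2.

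Alpha chains, which carry the site that integrins bind, were lower than the leading beta and gamma chains. *LAMA5*, the alpha chain of most adult epithelial membranes, was at 35.7 and 32.6, and *LAMA1*, prominent in embryonic membranes and kept in those of the kidney tubule, at 20.1 and 19.1. *LAMA3*, an alpha chain of epithelia, was at 19.2 and 12.7, and with a pseudocount of 1 it had the widest log2 ratio between libraries of any member. A transcript of 1815 bases annotated as subject to non-stop decay was at 8.79 in replicate 1 and 1.33 in replicate 2. *LAMA2* and *LAMA4*, chains of muscle and vessel membranes, were both below 1.

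Among integrin beta subunits, 7 of 8 had a mean FPKM of at least 1, the most complete integrin group. *ITGB1* (ENSG00000150093), which pairs with most alpha subunits, was at 352 and 371, with a mean of 361 ± 13.4 (SD, n = 2). It was below *COL4A2* in replicate 1 and above it in replicate 2, so these leading genes do not differ beyond their spread. *ITGB3*, the partner of αV in binding vitronectin and fibronectin, was at 119 and 113, and *ITGB5*, another αV partner, at 49.6 and 57.7.

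The remaining beta subunits were lower. *ITGB6* and *ITGB8*, which pair with αV and release active TGF-β, were at 9.91 and 9.63, and at 7.89 and 8.36. Coding transcripts gave only 42.7% of the mean FPKM of *ITGB6*. *ITGB4*, which links laminin to keratin filaments in hemidesmosomes, was at 6.71 and 6.64. *ITGB2*, the subunit of leukocytes, was at 19.5 and 17.4, and *ITGB2* overlaps an antisense gene. *ITGB7*, also of leukocytes, was the only beta subunit below 1, at 0.119 and 0.128.

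The alpha subunits are given by ligand, and levels differed widely within each group. *ITGA3*, a receptor subunit for laminins, was by far the highest at 228 and 213, with a mean of 221 ± 10.7 (SD, n = 2). *ITGA6*, the laminin receptor subunit that pairs with β4 in hemidesmosomes, was at 8.71 and 8.88, and *ITGA7*, a laminin receptor subunit of muscle, was at 0.886 and 0.720. Of the subunits that bind the RGD motif of fibronectin and vitronectin, *ITGAV* was at 67.9 and 77.8 and *ITGA5*, the fibronectin receptor subunit, at 42.0 and 41.1. *ITGA2B*, the subunit of platelets, had a mean of 0.590 ± 0.155 (SD, n = 2).

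The 4 alpha subunits of collagen receptors were all low, with a summed FPKM of 2.53 and 3.27. *ITGA2* was at 1.46 and 1.99, of which its coding transcript made 0.289 and 1.62, and the rest of replicate 1 came from a transcript annotated as subject to nonsense-mediated decay. *ITGA4*, which binds VCAM-1 and fibronectin, was at 3.75 and 3.18. *ITGA8*, the nephronectin receptor subunit of kidney mesenchyme, was listed at 0 in both libraries. The cells thus held the message for type IV collagen at high level and that of the collagen-binding integrins at a low one.

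Of the 5 alpha subunits of leukocyte integrins, only *ITGAE*, the subunit that binds E-cadherin, had a mean FPKM of at least 1, at 22.3 and 21.3. Of this, 79.3% and 82.5% came from a transcript of 672 bases in 4 exons without a defined coding sequence. The next transcript, of 721 bases, has no defined coding sequence either. The sum for *ITGAE* therefore does not stand for the level of a message for the subunit.

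Partners combine in set proportions, so their levels were set side by side. For the laminin receptor of α3 and β1, *ITGB1* exceeded *ITGA3* by 1.54-fold and 1.74-fold. For the fibronectin receptor of α5 and β1, *ITGB1* exceeded *ITGA5* by 8.38-fold and 9.01-fold. For the vitronectin receptors *ITGB3* exceeded *ITGAV* by 1.75-fold and 1.45-fold, and *ITGAV* exceeded *ITGB5* by 1.37-fold and 1.35-fold. Of the FPKM of *ITGB5*, 29.7% and 30.2% came from a transcript with a retained intron, and over coding transcripts alone *ITGAV* was at 67.3 and 76.7 and *ITGB5* at 32.5 and 38.1. *ITGA6* lay above *ITGB4* in both libraries, by 1.34-fold in replicate 2.

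Laminin chains were compared in the same way. Among the chains of the embryonic type, *LAMB1* exceeded *LAMA1* by 6.54-fold and 6.70-fold. *LAMB1* also exceeded *LAMA5*, by 3.69-fold and 3.93-fold. Of these assemblies the chains of *COL4A1* and *COL4A2* differed least.

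**Figure D2:**
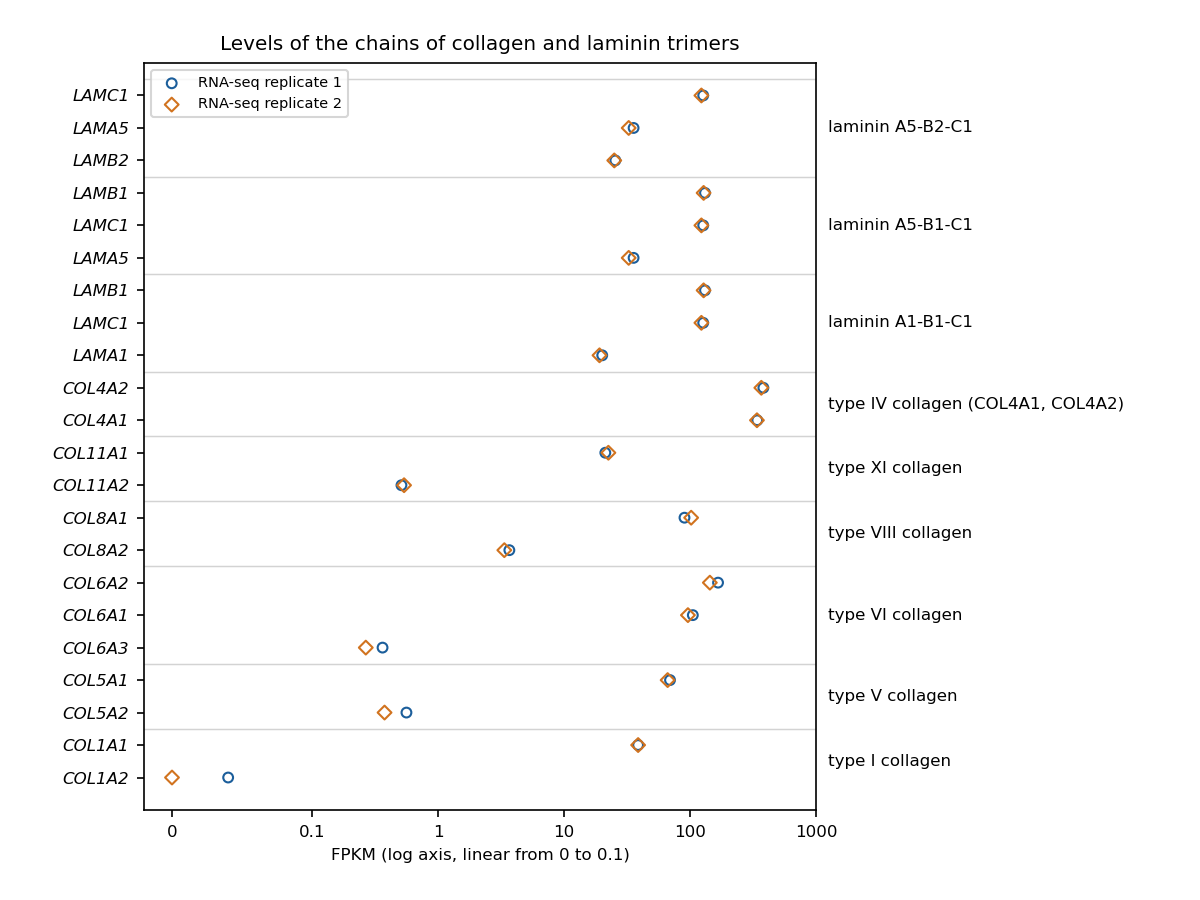
FPKM of the chains of collagen and laminin assemblies in replicates 1 and 2, on an axis that is linear near 0 and logarithmic above, with each point a library. *COL4A1* and *COL4A2* lie within 1.12-fold of each other, while *COL1A2*, *COL5A2* and *COL6A3* lie far below their partners.

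Lists of genes that act with the members were set beside them as a description. They hold genes chosen for their known roles, and 59.7% of all protein-coding genes had a mean FPKM of at least 1. Of 16 other matrix genes, 14 had a mean FPKM of at least 1, with a summed FPKM of 3470 and 3347. *FN1*, for fibronectin, was at 2268 and 2179, above every member, and *SPARC*, for a collagen-binding protein, was at 455 and 449.8. Of 16 genes for collagen chaperones and processing enzymes, 15 reached an FPKM of 1, with a summed FPKM of 1901 and 1775. *LOXL2*, which cross-links collagens, was at 686 and 539, and *P4HB*, a subunit of the enzyme that hydroxylates prolines in collagen chains, at 618 and 609.

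Of 23 adaptors that join integrins to the cytoskeleton, 22 had a mean FPKM of at least 1, with a summed FPKM of 1710 and 1748. The actin cross-linker *FLNA* was highest at 745 and 703, and *FERMT3*, the kindlin of blood cells, was the only one below 1, at 0.268 and 0.257. Of 11 other receptors for collagens and laminins, 8 did, with a summed FPKM of 1170.5 and 1230.0. *RPSA*, a ribosomal protein that also has been described as a laminin receptor, was highest at 768 and 746. *DAG1*, for the laminin receptor dystroglycan, was at 6.49 and 22.2, and *SDC2*, for a syndecan, at 41.9 and 108, so these receptors differed between libraries more than any member at an FPKM of at least 1.

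Peaks of HIF1α were then set beside the members on GRCh37. A peak list gives positions without heights, and the depth behind it is unknown. The lists hold 1689 peaks in replicate 1 and 16953 in replicate 2, with a median width of 325 and 404 bp. A promoter peak was a peak with at least 1 bp within 1 kb of any annotated start site of a gene.

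In replicate 1, 2 of the 82 members (2.44%) had a promoter peak, beside 5.49% of protein-coding genes. In replicate 2, 22 members (26.8%) did, beside 14.0%. Only *ITGB1* had one in both replicates (1.22%), beside 1.79%. Within 1 kb the share of members was thus below the background in replicate 1, where it rests on 2 genes, and above it in replicate 2. Within 10 kb the replicate 1 share was also above it.

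The promoter peaks of replicate 1 belonged to *COL11A1* and *ITGB1*. That of *COL11A1*, chr1:103572752-103573004, lies in an intron, 730 bp from the start of a coding transcript and 1074 bp from the canonical start. That of *ITGB1*, chr10:33294550-33294806, lies at the start of a transcript with a retained intron, 47392 bp from the canonical start. The replicate 2 promoter peak of *ITGB1*, chr10:33200370-33201076, lies elsewhere, at the start of a transcript annotated as subject to nonsense-mediated decay and 46082 bp from the canonical start. No member had promoter peaks of both replicates that overlapped each other. The share of all protein-coding genes with such peaks was not computed, so this is no result about the members.

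Many replicate 2 promoter peaks of members were at inner start sites. Of the 22 members, 11 (13.4% of 82), beside 6.10% of protein-coding genes, had a peak within 1 kb of the canonical start: *COL1A1*, *COL1A2*, *COL3A1*, *COL4A1*, *COL4A2*, *COL5A1*, *COL5A2*, *ITGAV*, *LAMA5*, *LAMB1* and *LAMC1*. At the 5′ end of the gene, 9 members (11.0%) had a replicate 2 peak, beside 5.81%. By family the 22 were 14 of 44 collagen, 4 of 12 laminin and 4 of 26 integrin genes, beside 14.0% of protein-coding genes. Of 52 pairs of a member and a promoter peak, 47 had at least 50% of the peak in exons. This is a description, since promoter peaks of all protein-coding genes were not counted in this way.

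Counts changed with the width of the window around the start. Within 500 bp, 1 member (1.22%) had a replicate 1 peak, beside 5.07% of protein-coding genes, and 20 (24.4%) had a replicate 2 peak, beside 11.2%. Within 10 kb, 8 members (9.76%) had a replicate 1 peak, beside 8.12% of protein-coding genes, and 37 (45.1%) had a replicate 2 peak, beside 37.7%. At every width the share in replicate 2 was above that of all genes.

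**Figure D3:**
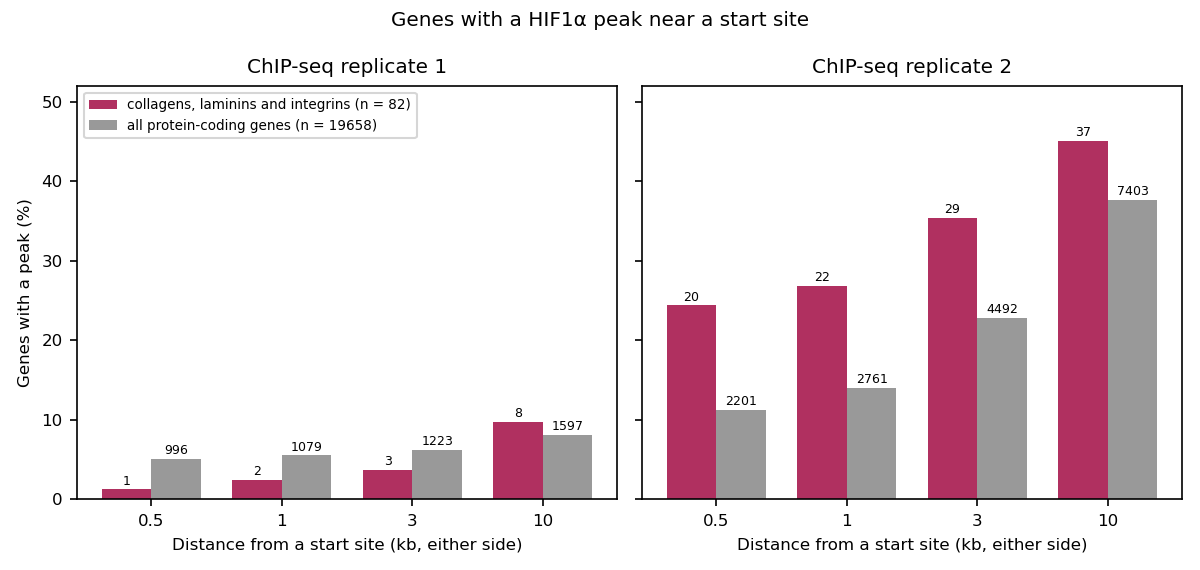
Share of members and of all protein-coding genes, in percent, with a HIF1α peak within 500 bp to 10 kb of an annotated start, for each ChIP-seq replicate. At 1 kb, 2.44% of members had a replicate 1 peak against 5.49% of all genes, and 26.8% had a replicate 2 peak against 14.0%.

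Since so few replicate 1 peaks were near members, all were looked at. Within 10 kb of a member gene lay 10 replicate 1 peaks, and all 10 hold a core. Of these, 4 have a member's own coding start as the nearest one, among them those of *COL11A1*, *ITGAE* and *ITGB1*, and 2 overlap a replicate 2 peak (near *COL7A1* and *ITGA1*). The peak within *ITGA1* is as near to the start of *PELO* as to that of *ITGA1*, since both begin at the same base, and the others are nearer to a coding start of a neighbour. The peak near *COL7A1*, chr3:48594454-48594961, is 4 bp from a coding start of *PFKFB4*, and that within *ITGA1*, chr5:52095737-52096027, overlaps an exon of *PELO* and an intron of *ITGA1*. The peak near *LAMA5* is 445 bp from a coding start of *ADRM1*. The neighbours *PFKFB4*, *PELO* and *ADRM1* were chosen after their values were seen. The share of all replicate 1 peaks that overlap a replicate 2 peak was not computed. The counts of overlaps and of nearest starts are therefore a description and no result about the members.

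The replicate 1 promoter peaks of members, the only ones in that list, are shown around the core closest to the peak centre, on GRCh37. That of *COL11A1* is chr1:103572893-103572937 on the minus strand, in an intron, with the core 37 bp from the centre. That of *ITGB1* is chr10:33294676-33294704 on the minus strand, in an exon, with the core 12 bp from the centre. Capitals mark the core:
*COL11A1*: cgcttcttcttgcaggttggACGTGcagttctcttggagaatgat
*ITGB1*: gtcatccgcaggGCGTGcggagtgtgccg
All of the replicate 1 promoter peaks of members hold a core, 2 of 2, beside 89.3% of the 1661 replicate 1 peaks on the chromosomes and contigs of the genome used, the mitochondrial one left out. Of the 51 replicate 2 promoter peaks of members, 27 (52.9%) hold one, beside 48.8% of 16648 replicate 2 peaks chosen in the same way. For the promoters of RefSeq on GRCh38, 250 bases before to 50 after a gene's start, 58 members were matched, of which 25 (43.1%) hold a core, beside 48.4% of 27305 promoters. Cores were thus about as frequent at members as elsewhere.

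Replicate 2 peaks lay mostly in the exons of members. Of 147 pairs of a member gene and a peak inside it, with the peak shared by *COL4A1* and *COL4A2* counted for both, 129 (87.8%) overlap an exon, 115 (78.2%) have at least 50% of the peak in exons, and 73 have at least 50% in coding sequence. For such pairs over all protein-coding genes the exon shares were 84.1% and 79.9%, so this belongs to the whole list and not to the members. The share in coding sequence was not computed for all genes. Replicate 1 had 4 peaks inside member genes, of which 1 overlaps an exon. An exon peak of replicate 2 was found for 30 members (36.6%), beside 34.3% of protein-coding genes. The share is near the background and is no result about the members, so the genes named next are a description.

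Among members with a mean FPKM of at least 10, 17 had an exon peak (58.6%) and 12 had none, beside 65.8% of protein-coding genes with one at that level. In *LAMC1*, 55.6% of exon bases lay in replicate 2 peaks, in *LAMB2* 48.6%, in *COL6A2* 44.5% and in *COL18A1* 42.9%. *LAMA5* held the most peaks over exons, 16, covering 42.3% of its exon bases. *ITGB3* and *COL8A1* had none at mean FPKM of 116 and 96.3.

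Some members with hardly any RNA had many exon peaks. Of the 40 members below a mean FPKM of 1, 10 (25%) had an exon peak, beside 10.7% of the 7932 protein-coding genes at that level. *COL6A3* had 13, covering 29.8% of its exon bases, *COL3A1* had 5, covering 31.3%, *COL5A2* had 3, covering 28.8%, and *COL1A2* had 4, covering 15.1%. All 25 peaks of these genes had at least 50% of their length in exons. At least 50% in coding sequence was found for 18, a share that was not computed for all genes. By the number of exon bases in peaks, which favours long genes, these ranked 7 (*COL6A3*), 88 (*COL3A1*), 89 (*COL5A2*) and 167 (*COL1A2*) among the protein-coding genes below 1. *COL6A3* has 21516 exon bases, of which 6405 lay in peaks.

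These 4 genes, for the scarce chains of the type I, V and VI assemblies and for type III collagen, were at an FPKM of 0.573 or less in both libraries. The other 6 members below 1 with an exon peak were *COL26A1*, with 27.4% of its exon bases in peaks, *COL4A6* with 14.7%, *COL9A3* with 13.6%, *COL2A1* with 10.1%, and *ITGA7* and *COL20A1* with less. Markers of fibroblasts, which make these chains, were at a summed FPKM of 5.45 and 5.32, and replicate 2 peaks overlap exons of 4 of the 6, among them *PDGFRA*, listed at 0 in both, with 3. Exon peaks were also seen at 3 of the 4 endothelial markers found in the GRCh37 annotation and at none of 6 leukocyte markers. Over all lists, 27 annotated genes were below a mean FPKM of 1, of which 11 had an exon peak and 16 had none. Of all protein-coding genes at that level, 10.7% had one. Of the 6 proximal tubule markers below 1, 2 had such a peak and 4 did not. Peaks held 58.0% of the exon bases of the proximal tubule marker *AQP1*, 40.7% of those of the epithelial marker *CDH1* and 49.4% of those of the basement membrane gene *FREM2*, all below an FPKM of 1. The part of other cell types in these peaks was not tested.

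**Figure D4:**
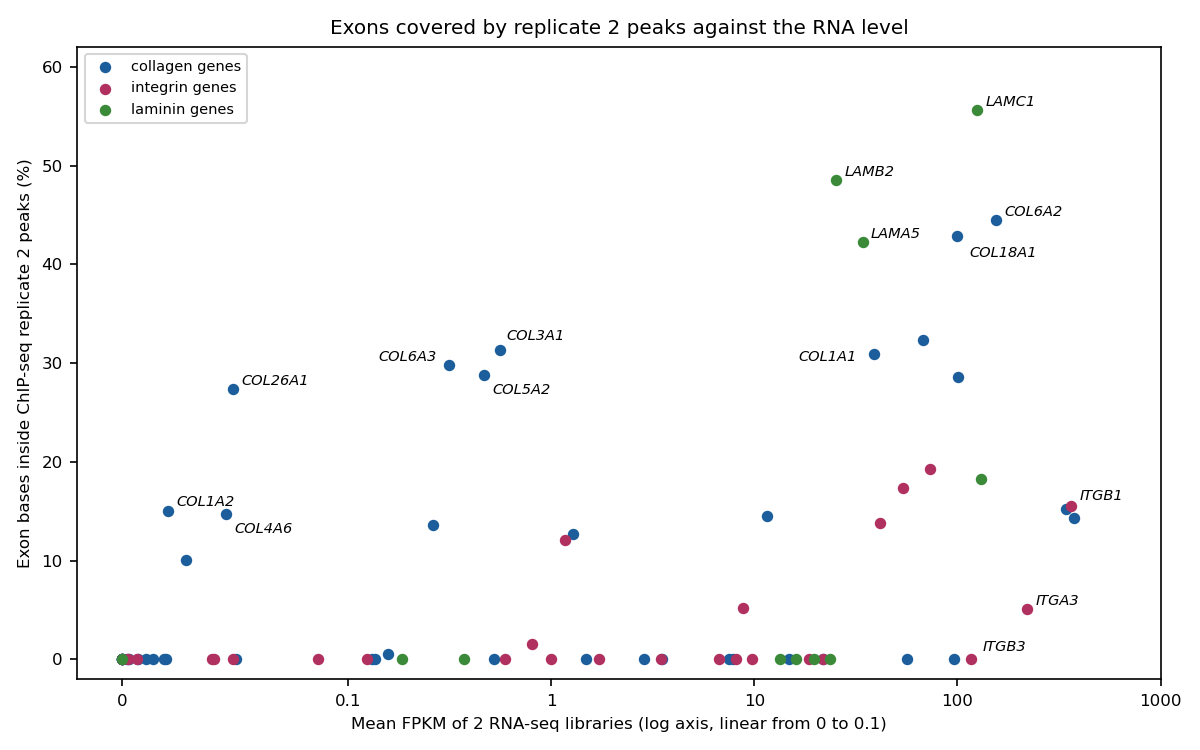
Percent of the exon bases of all but 1 of the members that lie in ChIP-seq replicate 2 peaks against its mean FPKM, on an axis that is linear up to 0.1 and logarithmic above, with each point a gene. *COL6A3*, *COL3A1* and *COL5A2*, below an FPKM of 1, have 28.8% to 31.3% of their exon bases in peaks, while *ITGB3* at 116 has none.

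The share of members with an exon peak was read against all genes at the same level. Below an FPKM of 0.1 it was 15.4% of members and 8.15% of all protein-coding genes, and from 0.1 to below 1 it was 42.9% and 17.4%. From 1 to below 10 it was 23.1% and 33.2%, and from 10 to below 100 it was 47.4% and 64.8%. At 100 or more it was 80% and 76.8%. By this share members were above all genes below an FPKM of 1 and below them from 1 to 100. Members have more exon bases per gene, with a median of 8495.5 against 2780.5 for all protein-coding genes in the lowest class. The share of exon bases in peaks allows for this. It was 2.11% for members and 1.97% for all genes below 0.1, 8.55% and 3.64% from 0.1 to below 1, and 3.19% and 5.19% from 1 to below 10. From 10 to below 100 it was 14.0% and 12.8%, and at 100 or more 18.0% and 22%. From 0.1 to below 1 the share by bases rested largely on *COL6A3*: without it members were at 4.50% and all genes at 3.59%. From 10 to below 100 and at 100 or more the order was the reverse of that by genes.

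Promoter peaks in both replicates were counted in the same way for the enzymes that process collagen. Of the 16 chaperone and enzyme genes, 6 had a promoter peak in replicate 1, beside 5.49% of protein-coding genes: *SERPINH1*, the collagen chaperone, *P4HA1*, *P4HA2* and *P4HB*, subunits of prolyl hydroxylase, *PLOD2*, a lysyl hydroxylase, and *LOX*, which cross-links fibrils. All but *P4HA2* had one in replicate 2 as well, so 5 had one in both, beside 1.79%. The lists were chosen with earlier results of these data known, so their contrasts with all genes are a description. Of the other matrix genes, *AGRN*, for the basement membrane proteoglycan agrin, had promoter peaks in both replicates. No adaptor and no other receptor had one in replicate 1. In replicate 2 a promoter peak was found for 10 of 16 other matrix genes, 9 of 23 adaptors and 4 of 11 other receptors, beside 14.0% of protein-coding genes. Known HIF1 targets numbered 12, with *P4HA1* on this list too. Of these, replicate 1 gave 9 a promoter peak, beside 5.49% of protein-coding genes, and replicate 2 gave 9, beside 14.0%. The same genes made up 8 of them, beside 1.79%.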

How the data were processed

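HK2 cells under FG-4592 were measured by HIF1α ChIP-seq (2 libraries) and RNA-seq (2 libraries), grouped by the sample labels. For ChIP-seq the authors trimmed adaptors, aligned reads to hg19 with Bowtie2, kept unique reads and called peaks with MACS2 per replicate. The deposited lists give the start and end of each peak in bp, and neither threshold nor control is given in the sources used here. For RNA-seq the authors used HISAT2 and StringTie 1.3.3 on GENCODE 27, and the deposited tables hold, for each transcript, its coverage, FPKM and TPM. Their coordinates are those of GRCh38, while the methods name hg19, and this was not resolved.

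FPKM was summed over transcripts. Peaks were set against GRCh37 with GENCODE 44, joined to RNA by Ensembl identifier, without converting positions. Promoters reached 1 kb to either side of any annotated start, and an overlap was at least 1 bp. Genes outside the members and lists are named as chosen after their values were seen. Members and lists were chosen with earlier results of these data known. Alternatives covered unit, minimum, pseudocount, transcripts, window, start sites, overlap, motif window and replicates. Code was tested on simulated data, with Python 3.11.15, numpy 2.4.6, pandas 2.3.3, pysam 0.24.0 and matplotlib 3.10.9. Depth was 4442 and 4202 Mb of coverage for RNA-seq and is unknown for ChIP-seq. The values of some genes and a sequence are not reported here. With 1 group of 2 libraries per assay no test was made.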

Additional observations from a re-analysis of the deposited data

How the results depend on the processing

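The count of members at a mean FPKM of at least 1 ran from 38 to 49 over all settings and was 42 without either RNA-seq replicate. In TPM the mean sums were 3891 for collagens, 1463 for laminins and 2623 for integrins. In FPKM the mean sums were 1407, 529 and 949, and 1194, 442 and 743 with the largest transcript of a gene in place of the sum. The median log2 ratio between replicates was -0.0246 with a pseudocount of 0.1, -0.0277 over members with a mean FPKM of at least 1, and -0.0161 in TPM. Members with a replicate 1 promoter peak numbered 1 within 500 bp, 8 within 10 kb, 1 at the 5′ end of the gene, 1 at coding starts and 0 at the canonical start. In replicate 2 they numbered 37 within 10 kb, 9 at the 5′ end and 11 at the canonical start. In both replicates they numbered 4 within 10 kb and 0 at the 5′ end, at coding starts, at the canonical start and where the peaks had to overlap. The canonical start and the overlapping peaks were chosen after seeing the data, as were transcripts of protein-coding type and the members with the reference name in both tables. Leaving out a ChIP-seq replicate gave 2 to 22. A core within 100 bp of the peak centre was found in 18 promoter peaks, against 29 in the whole peak. Of the 36 members whose levels were followed, all 36 were higher in TPM, and 29 moved with the largest transcript, all to lower values. No paired analysis was possible because all libraries belong to 1 condition.

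The peaks have no heights, and were all given equal weight, and replicate 2 holds far more of them than replicate 1. Without untreated cells or a control library, a peak over an exon cannot be told apart from background signal there. The SD of an FPKM from 2 libraries is imprecise. Overlapping and near-identical genes have uncertain levels, and levels of RNA are no measure of the protein in the matrix.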
